A study of Homo sapiens with 16 samples.

Results

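The collagen genes of human glioblastoma xenografts were followed through 2 experiments with exosome-delivered siRNA against MYC. A gene was taken as a collagen gene where its symbol had the form of a collagen chain (COL, a type number, A and a chain number), and the most abundant row stood for a repeated symbol. This gave 29 collagen genes among 17318 genes in the first experiment and 30 among 18168 in the second, with 29 in both tables and 30 of 18529 genes over the 2 tables together.

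U87 cells, a long-established human glioblastoma line that here carried luciferase as a reporter, were implanted into the brain of nude mice, a host that lacks mature T cells but keeps macrophages, microglia and vessels of its own. The mice received exosomes of MSC (an abbreviation the labels do not spell out) loaded with MYC siRNA 1 (Myc1, n = 3), scramble siRNA 1 (Scr1, n = 4), MYC siRNA 2 (Myc2, n = 5) or scramble siRNA 2 (Scr2, n = 4). The cell line is labelled WT, each library came from its own mouse, and tumours were collected at euthanasia, so the time on treatment was not fixed. The age of the mice was not given in the sources used here. For Myc1 and Scr1 the injections into the retro-orbital sinus started at day 28 after implantation, with 1e9 exosomes in 100 µl every other day. Total RNA of the tumours was sequenced, so fewer cells of a type and less RNA per cell cannot be told apart, and all p-values measure the spread between mice. The values are log2 CPM (read counts scaled to a common library total), quantile-normalized by the authors for each table alone, so levels were compared only within an experiment.

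Collagens are triple helices of chains that are hydroxylated and folded in the endoplasmic reticulum, secreted, trimmed and cross-linked outside the cell. Fibrillar collagens build fibrils, type IV collagen builds the network of basement membranes, type VI collagen forms beaded microfilaments around cells, and FACIT collagens coat the surface of fibrils. Normal brain holds little fibrillar collagen outside its vessels and meninges, while glioblastoma cells of the mesenchymal kind, such as cultured U87 cells, are known to secrete several collagens. MYC, the target of the siRNAs, is a transcription factor that binds the E-box CACGTG together with its partner MAX.

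MYC itself was read first, as a check of the labels. It ran from 14.3 to 38.1 CPM in Myc1 and from 21.2 to 108 CPM in Scr1, and from 42.3 to 72.1 CPM in Myc2 and from 25.9 to 47.1 CPM in Scr2. MYC averaged 4.61 ± 0.71 log2 CPM in Myc1 (SD, n = 3) and 5.44 ± 1.02 in Scr1 (SD, n = 4), a difference of -0.83 with overlapping groups (exact two-sided permutation p = 0.314). In the libraries labelled Myc2 it averaged 5.75 ± 0.29 (SD, n = 5) and in those labelled Scr2 5.18 ± 0.37 (SD, n = 4), a difference of 0.57 (exact two-sided permutation p = 0.0397), which was 0.40 without Scr2 replicates 1 and 4 (exact permutation p = 0.238). The target thus went against the label in the second experiment, and its groups are named only as labelled. Scr2 replicates 1 and 4 also stood apart over the whole table: they lay at -63.4 and -94.4 on the first principal component, which held 43.8% of the variance, and the other 7 libraries of that table lay above 0. Most differences of the second experiment are given with and without these 2 libraries. Group means and SDs are given with every library. Library sizes were not given; the share of genes at a library's lowest value was 8.81% in Scr1 replicate 3, 5.13% in Scr2 replicate 4 and 0.78% to 2.58% in the other 14.

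The promoters of the genes on which the comparisons turn are shown for reference, because MYC binds E-boxes. Of the 30 collagen genes 22 had a promoter in the RefSeq table (build GRCh38.p14). The 7 shown are those with a promoter in the table among the 8 genes that reached an unadjusted limma p under 0.05 in either experiment. Each sequence covers 150 bases, from position -150 to -1 before the annotated start of transcription, 5′ to 3′ on the strand of the gene. Capitals mark the motifs found on either strand: the GC box GGGCGG, the CCAAT box CCAAT and the TATA box TATAAA (no motif overlapped another). The windows lie at chr9:114155387-114155536 for COL27A1 (plus strand), chr9:134641653-134641802 for COL5A1 (plus strand), chr19:10010505-10010654 for COL5A3 (minus strand), chr21:46097962-46098111 for COL6A2 (plus strand), chr2:237414165-237414314 for COL6A3 (minus strand), chr3:48595330-48595479 for COL7A1 (minus strand) and chr9:98943757-98943906 for COL15A1 (plus strand).
COL27A1: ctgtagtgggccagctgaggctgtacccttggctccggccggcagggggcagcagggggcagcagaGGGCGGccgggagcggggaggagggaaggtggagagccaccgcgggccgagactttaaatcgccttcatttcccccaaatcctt
COL5A1: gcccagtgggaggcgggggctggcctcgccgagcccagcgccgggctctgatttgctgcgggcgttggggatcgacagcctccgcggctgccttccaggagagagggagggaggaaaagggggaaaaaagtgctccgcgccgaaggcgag
COL5A3: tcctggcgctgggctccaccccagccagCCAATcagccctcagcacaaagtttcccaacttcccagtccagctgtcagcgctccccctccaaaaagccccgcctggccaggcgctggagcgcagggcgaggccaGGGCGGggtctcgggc
COL6A2: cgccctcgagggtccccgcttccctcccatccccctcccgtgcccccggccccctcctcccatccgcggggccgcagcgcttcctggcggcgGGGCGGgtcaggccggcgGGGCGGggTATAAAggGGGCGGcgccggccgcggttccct
COL6A3: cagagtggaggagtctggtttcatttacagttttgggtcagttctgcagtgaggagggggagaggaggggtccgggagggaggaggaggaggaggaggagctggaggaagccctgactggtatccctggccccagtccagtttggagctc
COL7A1: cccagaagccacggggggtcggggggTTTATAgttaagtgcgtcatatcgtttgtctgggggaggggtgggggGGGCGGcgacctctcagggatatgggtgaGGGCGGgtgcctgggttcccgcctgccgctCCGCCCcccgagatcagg
COL15A1: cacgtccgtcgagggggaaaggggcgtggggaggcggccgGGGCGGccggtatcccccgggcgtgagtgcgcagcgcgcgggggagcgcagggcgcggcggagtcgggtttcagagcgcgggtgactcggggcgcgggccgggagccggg

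The 22 collagen genes had 32 windows. The E-box CACGTG was in 0 of these, against 4.57% of all 35116 promoter windows of the same length. A GC box was in 43.8% of the 32 windows (12 of the 22 genes), against 36.8% of all windows. A CCAAT box was in 15.6% of the 32 (5 genes), against 23.5% of all windows. A TATA box was in 12.5% of the 32 (3 genes), against 6.71% of all windows. Among the 7 shown, COL6A2 and COL7A1 held 3 GC boxes and a TATA box each, COL5A3 a GC box and a CCAAT box, COL15A1 and COL27A1 a GC box, and COL5A1 and COL6A3 none of the 4 motifs. COL15A1 and COL6A2 were the most GC-rich of the 7, at 80.7% each, and COL6A3 the least. Matches of letters describe these windows only.

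Type VI and type I collagen made up most of the collagen message in every group. Per kilobase of exon, COL6A2 averaged 900.2 CPM in Myc1 and 873 CPM in Scr1, COL6A1 744 CPM in Myc1 and 848 in Scr1, and COL1A2 604 CPM in Myc1 and 644 in Scr1. COL6A3, the long chain of type VI collagen, stood at 204 CPM per kb in Myc1 and 194 in Scr1, and COL1A1 at 119 in Myc1 and 155 in Scr1. COL5A2, the second chain of type V collagen, was the sixth of the table at 44.9 CPM per kb in Myc1 and 51.9 in Scr1. Thus COL1A2 was above COL1A1 per kilobase in both groups, although the type I collagen molecule needs more α1 than α2 chains.

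The same 6 genes led in the second experiment. Its Scr2 means given here include replicates 1 and 4. Without those libraries, Myc2 minus Scr2 was -0.22 log2 for COL1A1 and -0.24 log2 for COL1A2. COL6A1 averaged 889.9 CPM per kb in Myc2 and 540.5 in Scr2, COL1A2 672 in Myc2 and 554 in Scr2, and COL6A2 741 in Myc2 and 461 in Scr2. COL6A3 stood at 262 CPM per kb in Myc2 and 151 in Scr2, COL1A1 at 186 in Myc2 and 131 in Scr2, and COL5A2 at 53.5 in Myc2 and 53.6 in Scr2. The other genes lay below these, down to COL11A2 in the first experiment (0.133 CPM per kb in Myc1, 0.125 in Scr1) and COL4A4 in the second (0.0332 in Myc2, 0.0135 in Scr2). COL11A2 encodes a minor fibrillar chain of cartilage and COL4A4 a chain of the kidney's basement membrane.

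**Figure D1:**
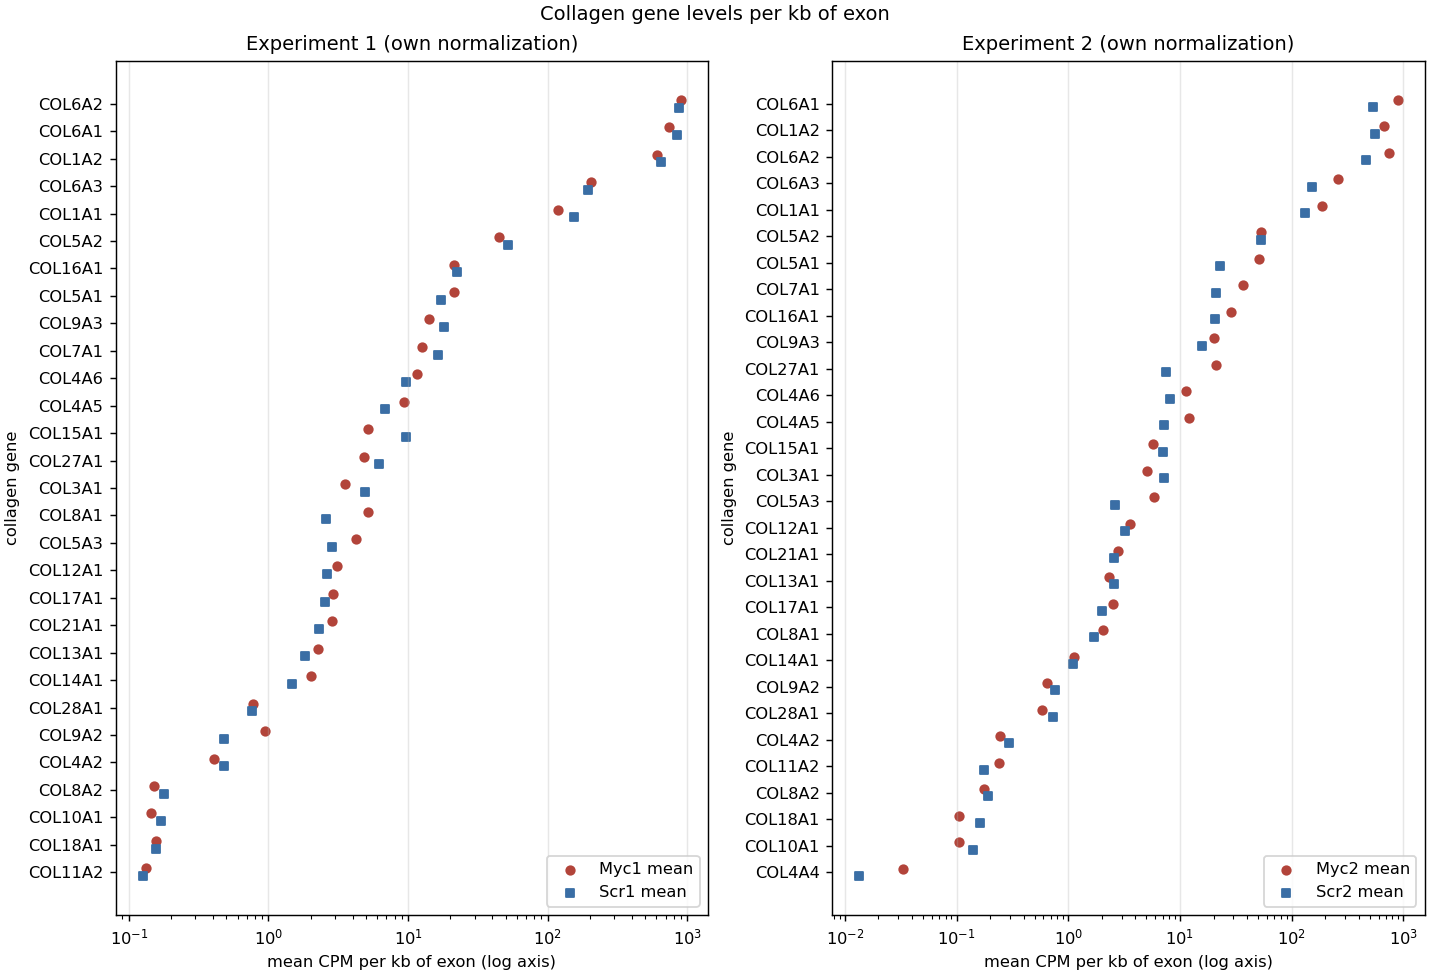
Mean CPM per kilobase of exon (log axis) of every collagen gene in Myc1 and Scr1 (left) and in Myc2 and Scr2 (right), 1 point per group. COL6A1, COL6A2, COL1A2, COL6A3 and COL1A1 lead both panels, and the Myc2 points of these 5 genes lie to the right of the Scr2 points.

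Of the 29 genes of the first experiment 26 passed the filter of 1 CPM in at least 3 libraries, and of the 30 of the second 26 passed it in at least 4. COL8A2, a chain of the network under the corneal endothelium, and COL10A1, a collagen of hypertrophic cartilage, were below it in both experiments. COL11A2 was below it in the first, and COL4A4 and COL18A1, the source of endostatin, in the second. COL18A1 ran from 0.382 to 0.974 CPM in Myc2 and from 0.974 to 1.27 CPM in Scr2.

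Summed over all collagen genes, the tumours held 14593 ± 1843 CPM in Myc1 (SD, n = 3) and 15302 ± 2795 CPM in Scr1 (SD, n = 4), which was 1.46% of all CPM in Myc1 and 1.53% in Scr1. The sum was 16689.6 ± 3312 CPM in Myc2 (SD, n = 5) and 11149.8 ± 5819 CPM in Scr2 (SD, n = 4), which was 1.68% of all CPM in Myc2 and 1.12% in Scr2. The 5 Myc2 libraries held 12175 to 21092 CPM. In Scr2, replicates 1 and 4 held 8314 and 4371 CPM, and replicates 2 and 3 held 15126 and 16788 CPM. COL1A1, COL1A2 and the 3 type VI chains took 90.9% to 92.5% of the collagen CPM in Myc1, 90.7% to 93.1% in Scr1, 87.3% to 90.1% in Myc2 and 83.4% to 88.9% in Scr2. Type VI chains alone took 56.5% to 67.8% in Myc1, 61.8% to 63.4% in Scr1, 51.9% to 63.5% in Myc2 and 47.6% to 56.0% in Scr2.

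**Figure D2:**
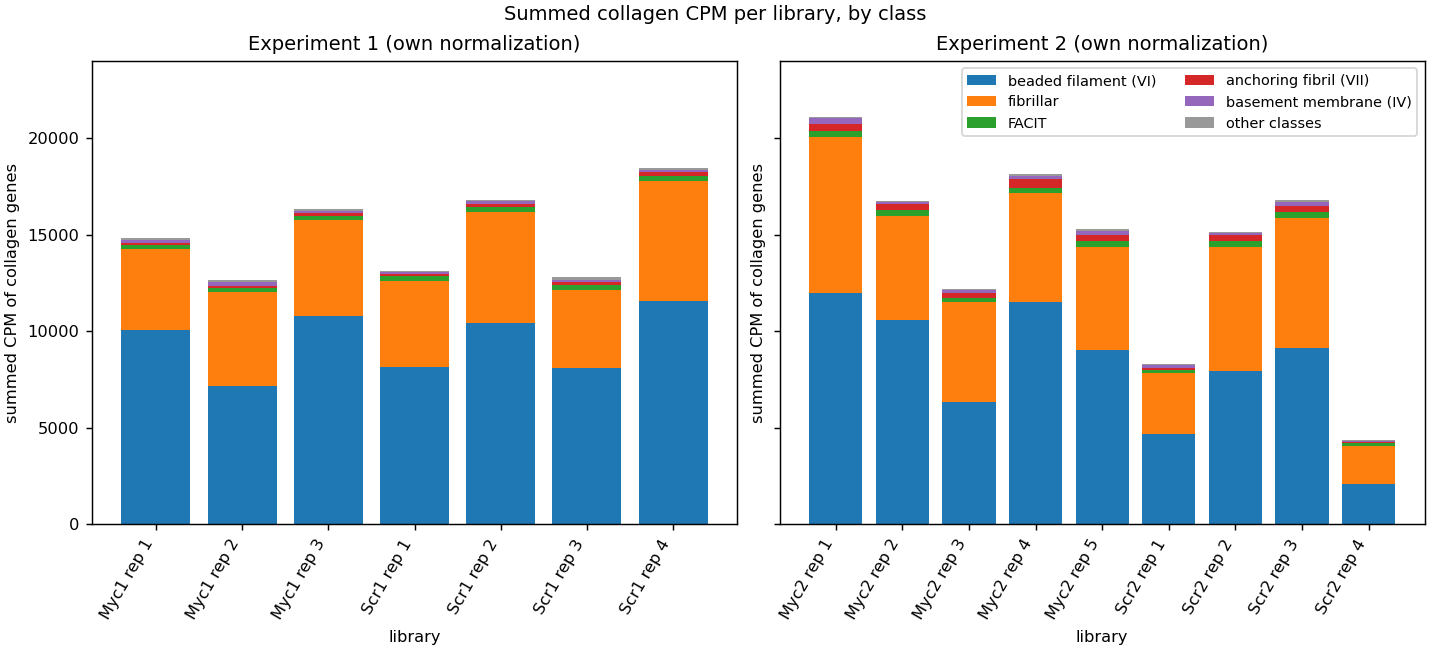
Summed CPM of the collagen genes in each library, stacked by collagen class, in the first (left) and second experiment (right). Type VI and fibrillar collagens fill most of every bar, and Scr2 replicates 1 and 4 have the shortest bars, at 8314 and 4371 CPM.

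Within groups, collagen genes varied more between mice than other genes did, as a description. The median SD of the 26 collagen genes was 0.37 log2 in Myc1 and 0.45 in Scr1, against 0.29 in Myc1 and 0.39 in Scr1 over all genes tested. For the second experiment the medians were 0.59 in Myc2 and 0.74 in Scr2, against 0.30 in Myc2 and 0.42 in Scr2 over all genes. COL16A1, a FACIT collagen, was the steadiest in the first experiment, with 1.19-fold between its lowest and highest library, and COL3A1, the fibrillar collagen of vessel walls and soft tissue, the least steady, at 5.25-fold. The second experiment ranged from 2.44-fold for COL8A1 to 13.0-fold for COL27A1, a fibrillar collagen of cartilage.

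The library that was lowest was not spread evenly over the genes. Scr2 replicate 4 was the lowest of the 9 libraries for 12 of the 26 collagen genes tested, while it was the lowest for 24.9% of all genes tested. In the same library COL3A1 was the highest of the 9, at 58.3 CPM, although COL1A1 (255 CPM), COL1A2 (1308 CPM) and COL6A1 (689 CPM) were at their lowest. The heat map of every library shows these values.

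**Figure D3:**
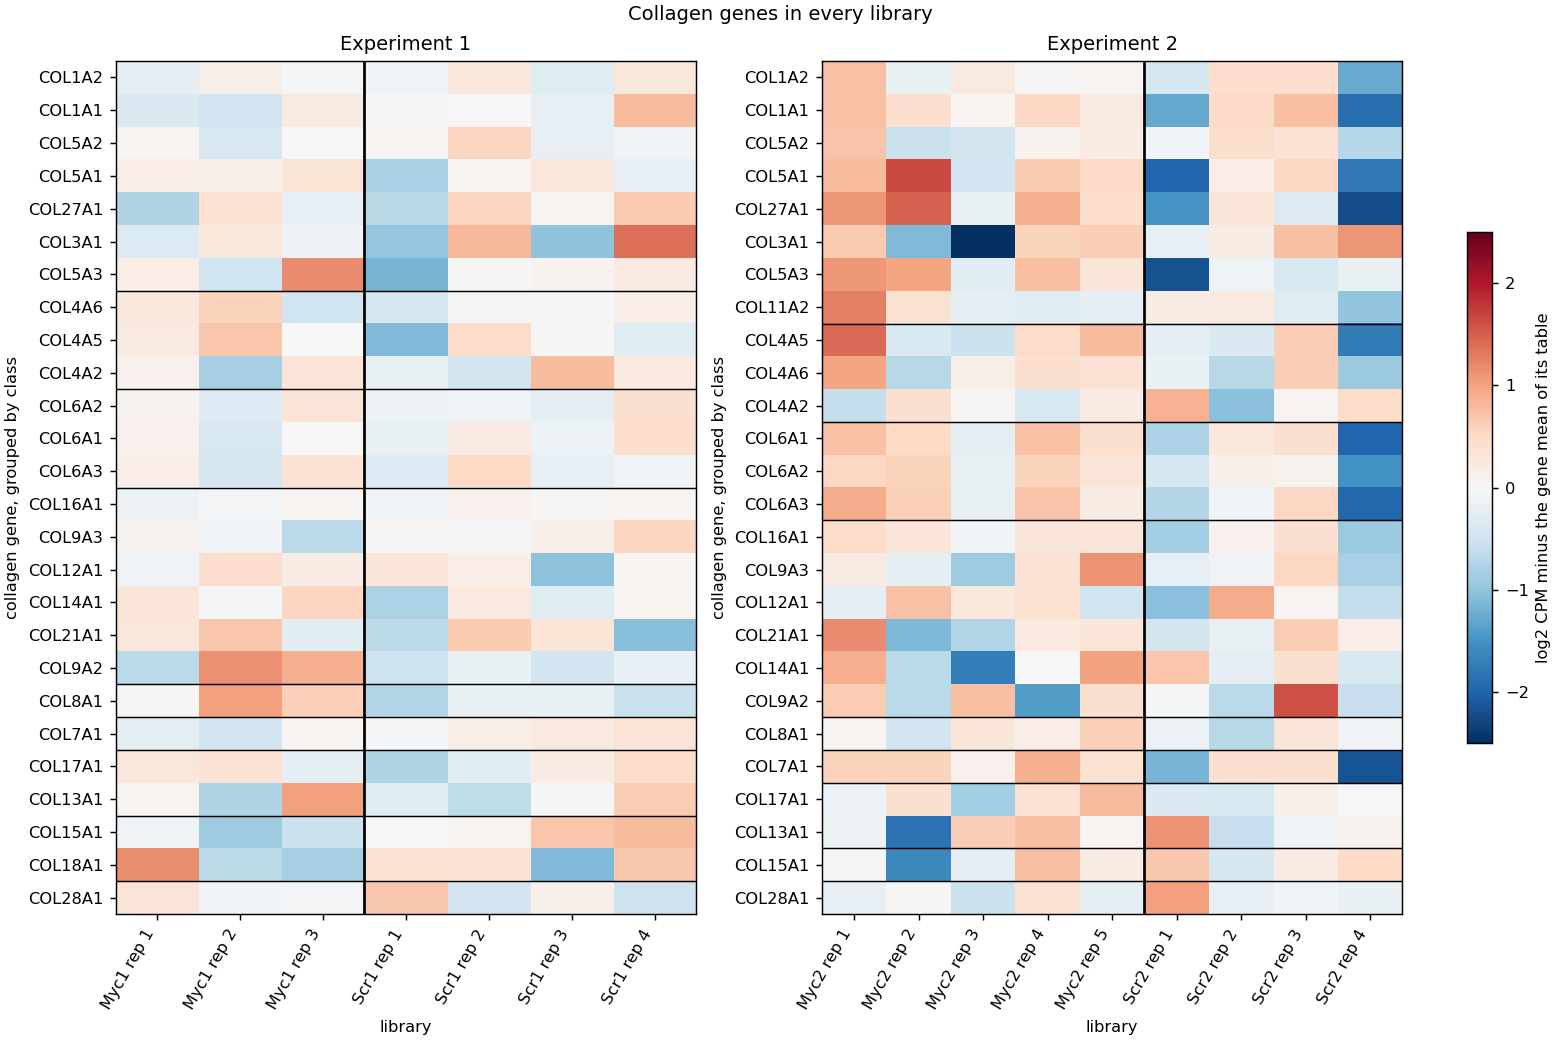
Colour gives the log2 CPM of each collagen gene tested in each library minus the mean of that gene in its table, with genes grouped by class (horizontal lines) and Myc libraries left of Scr libraries (vertical line). In the right panel the COL1A1, COL27A1, COL7A1 and type VI rows are darkest blue in Scr2 replicate 4, while COL3A1 is red there and darkest blue in Myc2 replicate 3.

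In the first experiment the short-chain collagen COL8A1 was higher in Myc1 and the multiplexin COL15A1 lower, and the abundant type I and type VI chains overlapped. COL8A1, which forms hexagonal networks around vessels and under some endothelia, had 19.9, 39.5 and 29.6 CPM in Myc1, against 11.7, 17.0, 17.4 and 13.2 CPM in Scr1. Every Myc1 library lay above every Scr1 library. The difference was 0.97 ± 0.29 log2 (SE; 95% interval 0.34 to 1.59; limma p = 0.00496, Benjamini-Hochberg adjusted p = 0.996; exact permutation p = 0.0286, the smallest for these group sizes), or 1.96-fold.

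COL15A1, a proteoglycan collagen of basement membrane zones, had 36.6, 21.3 and 27.3 CPM in Myc1, against 39.7, 41.6, 63.9 and 68.4 CPM in Scr1. Every Myc1 library lay below every Scr1 library, with 36.6 CPM in Myc1 replicate 1 close to 39.7 CPM in Scr1 replicate 1. The difference was -0.90 ± 0.28 log2 (SE; 95% interval -1.50 to -0.31; limma p = 0.00545, Benjamini-Hochberg adjusted p = 0.996; exact permutation p = 0.0286), or 0.534-fold. With 1 library left out, the COL8A1 difference ran from 0.73 to 1.23 and that of COL15A1 from -1.10 to -0.71.

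By limma 0 of the 26 collagen genes tested had an adjusted p under 0.05, as did 0.0% of the 13933 genes. At an unadjusted p under 0.05 there were 2 of 26, against 3.48% of all genes: 1 higher in Myc1 (1.96% of all genes) and 1 lower (1.52%). The same 2 genes separated the groups without overlap, against 4.21% of all genes: 1 with Myc1 higher (1.94%) and 1 with Myc1 lower (2.27%). Of the 26 genes 14 had a difference above 0 (49.5% of all genes), and their median was 0.056 (-0.0028 over all genes).

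The abundant chains showed little separation. COL6A2 had 4072, 3045 and 4773 CPM in Myc1, against 3495, 3608, 3231 and 5036 CPM in Scr1, a difference of 0.042 ± 0.21 log2. COL6A1 had 3608, 2532 and 3329.9 CPM in Myc1, against 2952, 3868, 3045 and 4524 CPM in Scr1, a difference of -0.18 ± 0.21, and COL6A3 differed by 0.069 ± 0.24. In all 3 type VI chains the groups overlapped, with the lowest library in Myc1 (replicate 2). COL1A2 had 2883, 3696 and 3231 CPM in Myc1, against 3098, 4072, 2706 and 4072 CPM in Scr1 (-0.078 ± 0.20). COL1A1 had 704, 647 and 1059 CPM in Myc1, against 917, 898, 788 and 1572 CPM in Scr1 (-0.36 ± 0.26), and its 2 lowest libraries were in Myc1.

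By class, 2 of the 7 fibrillar genes tested lay above 0: COL5A1, which starts collagen fibrils and limits their diameter (0.38 ± 0.25), and COL5A3 (0.50 ± 0.42). COL5A2 differed by -0.20 ± 0.22, COL27A1 by -0.34 ± 0.34 and COL3A1 by -0.12 ± 0.58. Of the basement membrane chains COL4A5 and COL4A6, partners in one type of type IV network, differed by 0.53 ± 0.32 and 0.19 ± 0.26, and COL4A2 by -0.23 ± 0.40. Of 6 FACIT genes 4 lay above 0, among them COL9A2 (0.79 ± 0.50) and COL14A1 (0.46 ± 0.31), while COL9A3 (-0.39 ± 0.25) and COL16A1 (-0.062 ± 0.19) lay below. COL7A1, which forms the anchoring fibrils under epithelia, had 113, 96.6 and 139 CPM in Myc1 and 129 to 169.9 CPM in Scr1 (-0.39 ± 0.21, exact permutation p = 0.0857). The transmembrane COL17A1, a component of hemidesmosomes, differed by 0.23 ± 0.32, and COL28A1, a collagen with von Willebrand domains, by 0.11 ± 0.40. Each of the differences in this paragraph had an adjusted p of 0.996 or 0.997 by limma.

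In the second experiment the fibrillar chains COL27A1, COL5A1 and COL5A3, the type VI chains COL6A2 and COL6A3, and COL7A1 had higher means in the libraries labelled Myc2 than in those labelled Scr2. Without Scr2 replicates 1 and 4, 5 of these 6 differences were 0.76 or less and the sixth 0.81. COL27A1 had 194, 252, 80.4, 168 and 122 CPM in Myc2, against 32.4, 112, 71.6 and 19.4 CPM in Scr2. Only Myc2 replicate 3 reached into the range of the Scr2 libraries. The difference was 1.68 ± 0.48 log2 (SE; 95% interval 0.63 to 2.73; limma p = 0.00468, adjusted p = 0.370; exact permutation p = 0.0317), or 3.20-fold. It was 0.76 ± 0.40 without Scr2 replicates 1 and 4.

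COL5A1 had 435, 798, 182, 399 and 350.4 CPM in Myc2, against 63.7, 283, 362 and 72.8 CPM in Scr2. Scr2 replicates 1 and 4 were far below every other library, and replicates 2 and 3 lay within the range of Myc2. Its difference was 1.395 ± 0.55 (limma p = 0.0279, adjusted p = 0.370; exact permutation p = 0.103) and 0.28 ± 0.47 without those libraries. COL5A3, the third type V chain, had 49.1, 46.3, 19.1, 39.5 and 28.6 CPM in Myc2, against 5.16, 21.7, 17.8 and 20.6 CPM in Scr2. Here the low library was Scr2 replicate 1 alone, and Scr2 replicate 4 was close to replicates 2 and 3. The difference was 1.28 ± 0.43 (limma p = 0.0121, adjusted p = 0.370; exact permutation p = 0.0317), and 0.81 ± 0.34 without Scr2 replicates 1 and 4 (limma adjusted p = 0.999).

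COL7A1 had 350.4, 346, 252, 434 and 308 CPM in Myc2, against 105, 316, 311 and 52.9 CPM in Scr2. Scr2 replicates 2 and 3 lay inside the range of the Myc2 libraries, and replicates 1 and 4 below it. The difference was 1.12 ± 0.47 (limma p = 0.0338, adjusted p = 0.370; exact permutation p = 0.0635) and 0.087 ± 0.21 without Scr2 replicates 1 and 4.

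The 3 type VI chains had the same order of libraries at the low end. COL6A1 had 4552, 3846, 2328, 4552 and 3592 CPM in Myc2, against 1599, 3288, 3592 and 689 CPM in Scr2. COL6A2 had 3592, 3682, 2213, 3682 and 3139 CPM in Myc2, against 1840.2, 2730.3, 2669 and 876 CPM in Scr2. COL6A3 had 3846, 3029, 1779, 3288 and 2285 CPM in Myc2, against 1219, 1932, 2888 and 515 CPM in Scr2. In each chain the lowest libraries were Scr2 replicate 4 and then replicate 1, and Myc2 replicate 3 was the lowest of its group. The differences were 0.95 ± 0.43 for COL6A1 (exact permutation p = 0.111), 0.79 ± 0.32 for COL6A2 (exact permutation p = 0.0397) and 1.00 ± 0.43 for COL6A3 (exact permutation p = 0.0714), each with an adjusted p of 0.370 by limma. The unadjusted limma p behind the choice of COL6A2 and COL6A3 was 0.0311 for COL6A2 and 0.0385 for COL6A3, beside the exact permutation p given above. With Scr2 replicates 1 and 4 left out, the differences were 0.095 ± 0.26 for COL6A1, 0.25 ± 0.22 for COL6A2 and 0.22 ± 0.30 for COL6A3.

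**Figure D4:**
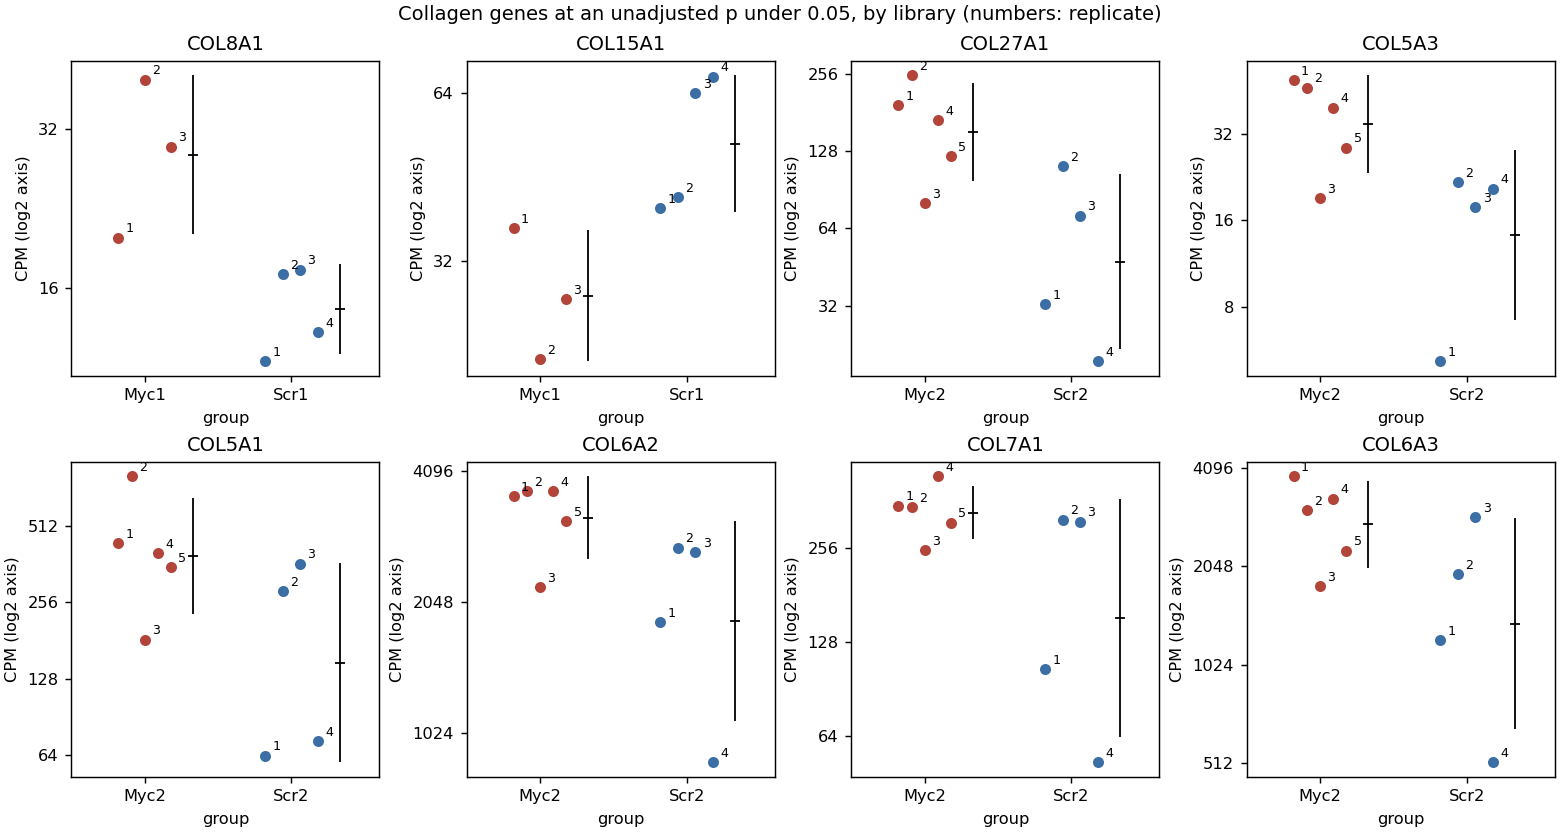
CPM (log2 axis) of the 8 collagen genes at an unadjusted limma p under 0.05, 1 point per library with its replicate number, Myc groups in red and Scr groups in blue, with the mean of the log2 values and 1 SD beside each group. COL8A1 and COL15A1 separate Myc1 from Scr1, and in 5 of the 6 genes of the second experiment the lowest points are Scr2 replicates 1 and 4.

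By limma 0 of the 26 collagen genes tested had an adjusted p under 0.05, as did 0.0% of the 14208 genes. At an unadjusted p under 0.05 there were 6 of 26, against 13.4% of all genes: 6 higher in Myc2 (7.0% of all genes) and 0 lower (6.36%). In 0 of the 26 were the groups free of overlap, against 3.01% of all genes (1.4% with Myc2 higher and 1.61% with Myc2 lower). Of the 26 genes 17 lay above 0 (48.2% of all genes), and their median was 0.34 (-0.018 over all genes). Without Scr2 replicates 1 and 4, 1 of 27 collagen genes tested had an unadjusted p under 0.05 (3.48% of all genes), 0 had an adjusted one (0.0137% of all genes), 16 of 27 lay above 0 (46.0% of all genes) and the median was 0.087. With 1 library left out, the 6 became 2 without Myc2 replicate 1 (1240 of 14094 over all genes), Scr2 replicate 1 (906 of 14386) or Scr2 replicate 4 (719 of 14389). The count was 3 without Myc2 replicate 2 (1011 of 14076) or Myc2 replicate 4 (1360 of 14093). It was 8 without Myc2 replicate 3 (1885 of 14101), 9 without Scr2 replicate 2 (3928 of 14422) and 11 without Scr2 replicate 3 (2787 of 14416). Over all genes it was 1898 of 14208 with every library, so the counts of the whole table moved too.

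Type I collagen followed the same libraries. COL1A1 had 1558, 1263, 972, 1357 and 1106 CPM in Myc2, against 387, 1308, 1581 and 255 CPM in Scr2, a difference of 0.88 ± 0.48 (exact permutation p = 0.238). COL1A2 differed by 0.40 ± 0.34. Without Scr2 replicates 1 and 4 the differences were -0.22 ± 0.21 for COL1A1 and -0.24 ± 0.23 for COL1A2, so their direction rested on these libraries. COL5A2 had 591, 247, 262, 386 and 409 CPM in Myc2, against 344, 491, 463 and 221 CPM in Scr2, a difference of -0.011 ± 0.30. Its lowest library was also Scr2 replicate 4, and the difference was -0.41 ± 0.31 without Scr2 replicates 1 and 4.

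The genes with the lowest differences were spread over classes. COL3A1 had 42.6, 12.6, 4.63, 39.8 and 41.3 CPM in Myc2, against 23.3, 30.8, 45.8 and 58.3 CPM in Scr2, a difference of -0.83 ± 0.62 that was -0.84 ± 0.91 without Scr2 replicates 1 and 4. Its low libraries were Myc2 replicates 2 and 3, and the other 3 Myc2 libraries lay within the Scr2 range. COL15A1 differed by -0.42 ± 0.41, COL28A1 by -0.27 ± 0.34, COL13A1, a transmembrane collagen of cell contacts, by -0.25 ± 0.52, and COL14A1 by -0.22 ± 0.52. With Scr2 replicates 1 and 4 left out, COL15A1 was at -0.072 ± 0.55, COL28A1 at 0.022 ± 0.35, COL13A1 at 0.22 ± 0.62 and COL14A1 at -0.19 ± 0.70. COL8A1, which separated the groups of the first experiment, had 10.8, 7.45, 12.9, 11.7 and 15.8 CPM in Myc2, against 9.38, 6.45, 12.8 and 9.98 CPM in Scr2 (0.28 ± 0.27).

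By class, medians were read with and without Scr2 replicates 1 and 4, and differences between classes were not tested. The median difference was 0.64 over the 8 fibrillar genes tested, 0.95 over the 3 type VI genes and 0.54 over the 3 type IV genes, and without those libraries they were -5.75e-05, 0.22 and 0.28. Among these COL4A5 differed by 0.79 ± 0.48 (0.22 ± 0.54 without those libraries) and COL4A6 by 0.54 ± 0.36 (0.28 ± 0.46). The 6 FACIT genes had a median of 0.099, and -0.22 without those libraries, with COL16A1, the most abundant of them, at 0.58 ± 0.27 (exact permutation p = 0.119), and 0.012 ± 0.18 without them. Of the same class, COL12A1 differed by 0.29 ± 0.38 and COL9A3 by 0.25 ± 0.37, and without them by -0.37 ± 0.35 and -0.11 ± 0.47. COL17A1 differed by 0.26 ± 0.31 and by 0.23 ± 0.40 without them.

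Collagen transcripts are long, and in the second experiment the difference moved with length over all genes. The median exon length was 6.16 kb over the collagen genes and 3.52 kb over all genes tested. Over all genes the median difference ran -0.28, -0.088, 0.056 and 0.16 from the shortest to the longest of 4 equal length classes, and 17 of the 26 collagen genes tested lay in the longest. Their median there was 0.54, against the 0.16 of all genes of that class. Without Scr2 replicates 1 and 4 the 4 medians were 0.011, -0.0095, -0.025 and -0.074, and the collagen genes of the longest class (18 tested) had a median of 0.22, against the -0.074 of all genes of that class. The part of length in the collagen differences was not tested. In the first experiment the medians ran 0.098, -0.0094, -0.035 and -0.057.

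**Figure D5:**
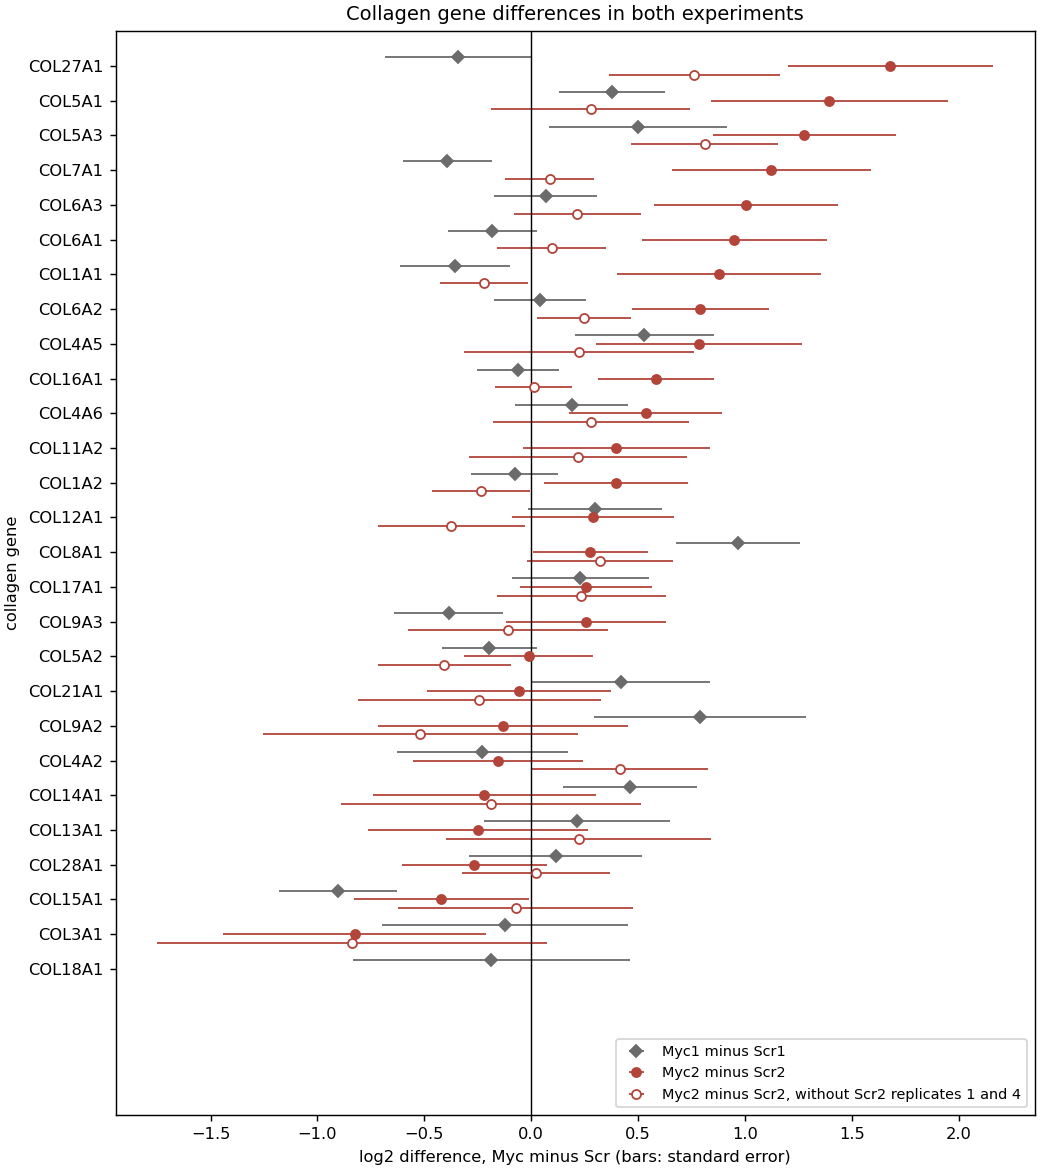
Log2 difference with its standard error for each collagen gene: Myc1 minus Scr1 (grey diamonds), Myc2 minus Scr2 (filled red circles) and Myc2 minus Scr2 without Scr2 replicates 1 and 4 (open circles), in the order of the second experiment. The filled circles of COL27A1 to COL4A5 lie between 0.79 and 1.68, and the open circles of the same genes lie between -0.22 and 0.81.

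The difference between the 2 siRNA effects was tested in a joint limma fit of the 4 groups, as Myc1 minus Scr1 less Myc2 minus Scr2. By limma 0 of the 25 collagen genes tested had an adjusted p under 0.05, as did 0.0% of 13656 genes, and 2 had an unadjusted one, against 8.75% of all genes: 0 with a positive difference (4.12% of all genes) and 2 with a negative one (4.63%). The difference was above 0 in 8 of the 25, against 51.4% of all genes. COL27A1 differed by -0.34 in the first experiment and by 1.68 in the second, a difference of -2.02 ± 0.68 (limma p = 0.00869, adjusted p = 0.528; exact permutation p = 0.0224). COL7A1 differed by -0.39 in the first and by 1.12 in the second, a difference of -1.52 ± 0.58 (limma p = 0.0185, adjusted p = 0.528; exact permutation p = 0.00703). Without Scr2 replicates 1 and 4 the differences were -1.10 ± 0.58 for COL27A1 and -0.48 ± 0.28 for COL7A1. The count at an unadjusted limma p under 0.05 was then 0 (178 of 13711 over all genes), and 11 of 25 lay above 0 (51.3% of all genes). With 1 library left out, the count was 7 without Scr2 replicate 2 (2769 of 13730 over all genes) and 8 without Scr2 replicate 3 (1860 of 13711). With every library the count over all genes was 1195 of 13656. Of the 25 genes 9 lay above 0 in both experiments (21.0% of all genes), among them COL5A1, COL5A3, COL4A5, COL4A6 and COL8A1, and 4 lay below 0 in both (24.7% of all genes): COL15A1, COL3A1, COL4A2 and COL5A2. COL4A2 was at -0.23 in the first and -0.15 in the second, and at 0.42 in the second without Scr2 replicates 1 and 4.

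Chains that assemble into a common molecule were compared within each library, as the log2 ratio of their CPM. A length factor that is the same in every library cancels when groups are compared. A shift with length that differs between groups, as over all genes in the second experiment, does not cancel for chains of unlike length. Such a pair is COL6A2 (4.40 kb) and COL6A3 (10.9 kb), and the part of length was not tested. COL6A1 and COL6A2 had the closest ratio of the 4 pairs: its SD over libraries was 0.19 in the first experiment, where either chain had an SD of 0.28, and 0.26 in the second, where the chains had SDs of 0.89 and 0.67. The group difference in this ratio was -0.22 in the first experiment (exact permutation p = 0.114) and 0.16 in the second (exact permutation p = 0.397). For COL6A2 and COL6A3 it was -0.027 (exact permutation p = 0.914) and -0.21 (exact permutation p = 0.286), and for COL1A1 and COL1A2 -0.28 (exact permutation p = 0.429) and 0.48 (exact permutation p = 0.151). The second-experiment values without Scr2 replicates 1 and 4 were -0.15 for COL6A1 and COL6A2, 0.032 for COL6A2 and COL6A3, and 0.017 for COL1A1 and COL1A2. The ratio of COL5A1 to COL5A2 averaged 0.11 ± 0.91 in Myc2 (SD, n = 5) and -1.30 ± 0.92 in Scr2 (SD, n = 4), a difference of 1.41 with exact permutation p = 0.0397 and 0.317 after Benjamini-Hochberg adjustment over the 8 tests of 4 pairs. It was 0.68 without Scr2 replicates 1 and 4 (exact permutation p = 0.429), and 0.57 in the first experiment (exact permutation p = 0.171). With 1 library left out the difference in Myc2 ran from 1.01 to 1.72, with exact permutation p from 0.0179 to 0.143 and under 0.05 only without Scr2 replicate 3.

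The genes that make, trim, bind and cut collagen were counted from lists of enzymes, receptors and binding proteins. In the first experiment 38 of 53 tested lay above 0 (49.5% of all genes), and 0 had an adjusted limma p under 0.05. At an unadjusted limma p under 0.05 there were 6 with a higher mean in Myc1 (1.96% of all genes) and 0 with a lower one (1.52%). They were P4HA1, a subunit of prolyl 4-hydroxylase (0.67 ± 0.28), the collagen galactosyltransferase COLGALT2 (0.87 ± 0.38), PCOLCE2, an enhancer of procollagen cleavage (0.76 ± 0.25), the cross-linking enzyme LOX (0.79 ± 0.30), the proteoglycan BGN (1.97 ± 0.78) and the matricellular protein POSTN (2.35 ± 0.98). LOX ran from 22.4 to 30.7 CPM in Myc1 and from 10.98 to 23.2 CPM in Scr1, and PCOLCE2 from 36.2 to 49.4 CPM in Myc1 and from 20.2 to 32.0 CPM in Scr1. The PCOLCE2 groups did not overlap, and those of LOX did. By limma each had an adjusted p of 0.996. Without Myc1 replicate 3 the COLGALT2 difference was 0.33 and that of P4HA1 0.45. BGN ran from 62.5 to 363 CPM in Myc1 and from 17.1 to 80.8 CPM in Scr1. POSTN ran from 5.65 to 23.7 CPM in Myc1 and from 0.694 to 11.9 CPM in Scr1, so both overlapped. With 1 library left out, limma p reached 0.125 for BGN and 0.143 for POSTN. In the second experiment BGN differed by 0.99 ± 0.40 and POSTN by -1.22 ± 1.55.

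For the second experiment 44 of 53 lay above 0 (48.2% of all genes), and 0 had an adjusted limma p under 0.05. At an unadjusted limma p under 0.05 there were 18 with a higher mean in Myc2 (7.0% of all genes) and 0 with a lower one (6.36%). Over all genes 13.4% had an unadjusted limma p under 0.05, and 3.48% without Scr2 replicates 1 and 4. Of the 18, the 10 with the smallest p came from all 5 lists. In hydroxylation of lysine, PLOD1 differed by 0.79 ± 0.22 and PLOD2 by 0.88 ± 0.29. In propeptide removal, ADAMTS14 differed by 1.68 ± 0.42, and in cross-linking LOX by 1.35 ± 0.39, LOXL2 by 1.00 ± 0.35 and LOXL3 by 0.74 ± 0.27. Of the receptors, DDR1 differed by 0.68 ± 0.20 and the uptake receptor MRC2 by 0.79 ± 0.30. The membrane collagenase MMP14 differed by 0.71 ± 0.21, and TGFBI, a collagen-binding secreted protein, by 1.05 ± 0.40. Without Scr2 replicates 1 and 4 these ran from 0.31 for MRC2 to 1.14 for ADAMTS14, with PLOD1 at 0.76 and LOX at 1.07. Over all tested genes of a list, the median difference was 0.19 without those libraries and 0.37 with them for hydroxylation and folding, 0.078 and 0.21 for export, cleavage and cross-linking, 0.040 and 0.43 for receptors, 0.041 and 0.70 for collagenases, and -0.35 and 0.15 for fibril-binding proteins.

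Markers of cells that could bring collagen into the tumour were read beside these values. The host cells are those of the mouse, while the values are per human gene. Whether mouse reads were set apart was not given. Host cells and U87 cells therefore cannot be told apart as the source of these values, and the sums do not measure host cell content. For fibroblasts and pericytes (9 of 10 listed markers measured), the sum was 266 to 376 CPM in Myc1 and 271 to 439 CPM in Scr1. It was 370.1 to 489.9 CPM in Myc2 and 241 to 444 CPM in Scr2. Above 0 were 4 of 8 tested in the first experiment (49.5% of all genes) and 5 of 8 in the second (48.2% of all genes). PDGFRB and CSPG4 gave most of the sum. The fibroblast products DCN and LUM were at most 10.9 CPM in the first experiment and 9.30 CPM in the second. Endothelial markers summed to 3.77 to 4.82 CPM in Myc1 and 3.44 to 5.11 CPM in Scr1 (6 measured), and to 8.07 to 56.9 CPM in Myc2 and 4.73 to 27.2 CPM in Scr2 (7 measured). In the second experiment all 5 endothelial markers tested lay above 0 (48.2% of all genes), with a median of 0.49 (1.16 without Scr2 replicates 1 and 4). CDH5 differed by 2.28 ± 0.91 and TIE1 by 2.09 ± 1.09, and without those libraries by 1.92 and 2.33. For both genes the ranges of Myc2 and Scr2 overlapped. TEK differed by 0.34 and VWF by 0.031, and without those libraries by 1.16 and 0.041. KDR differed by 0.49, and by -0.050 without those libraries. TIE1 reached 43.1 CPM and CDH5 6.49 CPM, while KDR, TEK and VWF were at most 2.63 CPM. ERG and ESAM, below the filter, had lower means in Myc2 (-3.58 and -0.42 log2 CPM) than in Scr2 (-2.02 and -0.28). Macrophage and microglia markers (4 of 10 listed measured) summed to 358 to 522 CPM in Myc1 and 297 to 423 CPM in Scr1. They summed to 244 to 316 CPM in Myc2 and 196 to 298 CPM in Scr2. CD68 and TMEM119 gave most of this sum, and ITGAM in the first experiment and PTPRC in the second were below the filter. Astrocyte markers (5 of 7 listed measured) summed to 324 to 402 CPM in Myc1 and 143 to 401 CPM in Scr1. They summed to 204 to 841 CPM in Myc2 and 169 to 488 CPM in Scr2. SLC1A3 and GJA1 gave most of this sum. GFAP was at most 3.11 CPM in the first experiment and 2.83 CPM in the second, and ALDH1L1 was below the filter in both. The 10 markers of mesenchymal glioblastoma cells, all measured, summed to 22407 to 23097 CPM in Myc1 and 22085 to 24576 CPM in Scr1, and to 17526 to 20337 CPM in Myc2 and 18748 to 23439 CPM in Scr2. The part of other cell types in the collagen differences was not tested.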

How the data were processed

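RNA sequencing of 16 tumours was analysed from the 2 tables the authors deposited, 1 per experiment, with log2 values per human gene. The unit was read from the values: back-transformed, each library summed to between 995054 and 998392, and at 77.8% to 82.0% of ranks the sorted libraries of a table lay within 0.1 of each other, so the deposited values are log2 CPM after quantile normalization by the authors. This hides changes of total RNA and leaves no whole reads to recover. The submitters' processing notes name bcl2fastq 2.20.0, STAR 2.6.0b, Picard, hg19 and mm10 without roles. How reads were counted, and whether mouse reads were set apart, was not given in the sources used here.

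Each comparison was fitted over its whole table with limma 3.58.1 (trend and robust) in R 4.3.3 on genes with at least 1 CPM in as many libraries as the smaller group (3 and 4), with Benjamini-Hochberg adjustment at 0.05. Single values were compared by exact permutation (35 arrangements, smallest p 0.0286; 126, smallest p 0.00794; 4410 for the joint test). Exon lengths are unions of GENCODE 29 basic exons. On simulated data, 15% of 2-fold and 98% of 4-fold changes were recovered in the first design (14081 genes) and 44% and 100% in the second (14363 genes). These data had the same dispersion for every gene, no library set apart and changes only in the more abundant genes. In Scr2 the collagen genes tested had a median SD of 0.74 log2, against 0.42 over all genes. Alternatives changed the pseudocount (0.1 or 1), filter, variance settings, library weights, scaling (TMM factors) and libraries. Collagen genes were named where they had an unadjusted p under 0.05, were among the 10 most abundant or the 5 largest differences in a direction, fell below the filter or led a class; the few others were named after their values were seen. At most 10 other genes of the pathway were named per experiment, by smallest p. The members and lists were chosen with earlier results of these data known.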

Additional observations from a re-analysis of the deposited data

Results flagged for a closer look

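Of 58 groups of 4 or 5 libraries (the 20 collagen genes named by rule for the first experiment in Scr1, and the 19 for the second in Myc2 and in Scr2), 3 held a library far from the rest of its group by Dixon's criterion; chance gives about 1 in 20. In Scr1 replicate 1, COL5A3 was at 3.08 log2 CPM (8.45 CPM), below the other 3 libraries at 19.4 to 21.9 CPM. In Scr2 replicate 1, COL5A3 was at 2.37 log2 CPM (5.16 CPM), below the other 3 at 17.8 to 21.7 CPM. In the same library COL28A1 was at 2.44 log2 CPM (5.41 CPM), above the other 3 at 2.29 to 2.53 CPM.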

How the results depend on the processing

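No paired analysis was possible because the labels give no replicate numbers; those used here follow the order of the samples. The ratio of COL4A1 to COL4A2 was planned, but COL4A1 was not analysed here. In the second experiment the count of collagen genes at an unadjusted limma p under 0.05 was 6, with 1898 of 14208 over all genes. With library weights it was 3 (1098 over all genes). Without Scr2 replicates 1 and 4 it was 1 (509 of 14639), where 2 genes of the whole table passed the adjusted threshold. In the difference between the experiments it was 0 instead of 2 without them (178 instead of 1195 over all genes). Without these 2 libraries COL13A1 (0.22), COL1A1 (-0.22), COL1A2 (-0.24), COL28A1 (0.0224), COL12A1 (-0.37), COL9A3 (-0.11) and COL4A2 (0.42) changed sign, and under TMM scaling COL5A2 did (0.00607). Leaving them out was chosen after the data were seen for MYC (0.40), COL5A1 and COL5A2 (0.68), COL6A1 and COL6A2 (-0.15) and COL6A2 and COL6A3 (0.0317), of which the last 2 changed sign. The cause was not tested.

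With 1 library left out, genes of the whole table past the adjusted threshold ran from 0 to 2 in the first experiment and from 0 to 9 in the second. Collagen genes at an unadjusted limma p under 0.05 ran from 2 to 11 in the second and from 2 to 8 in the difference. Over all genes the same count ran from 719 to 3928 in the second and from 528 to 2769 in the difference. The MYC difference in the second experiment ran from 0.41 to 0.70, and the ratio of COL5A1 to COL5A2 there from 1.01 to 1.72. The ratio of COL6A2 to COL6A3 ran from -0.22 to 0.12 in the first experiment and from -0.40 to -0.10 in the second. Of all collagen genes tested, those that changed sign in the first experiment were COL12A1 (-0.00382 to 0.44), COL13A1 (-0.24 to 0.65), COL18A1 (-0.82 to 0.18), COL1A2 (-0.19 to 0.00921), COL28A1 (-0.0419 to 0.36), COL3A1 (-0.48 to 0.32), COL4A2 (-0.46 to 0.12), COL4A6 (-0.0375 to 0.50), COL6A2 (-0.10 to 0.22) and COL6A3 (-0.0933 to 0.30). In the second they were COL12A1 (-0.00528 to 0.66), COL21A1 (-0.36 to 0.22), COL9A2 (-0.38 to 0.38), COL13A1 (-0.48 to 0.19), COL14A1 (-0.50 to 0.19), COL28A1 (-0.39 to 0.0283), COL4A2 (-0.53 to 0.10) and COL5A2 (-0.25 to 0.14). With 3 to 5 libraries a group, the simulated recovery holds only for its own setting, with the same dispersion for every gene and no library set apart. It does not set the size of change that could be called here.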
